A study of Homo sapiens with 6 samples.

Results

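The KLF and SP factors described here are 10 genes, KLF2, KLF3, KLF4, KLF6, KLF10, KLF11, KLF13, KLF16, SP1 and SP3, out of 35410 genes in the MACE-Seq table. They were chosen by name, as members of the KLF and SP family of transcription factors, and each name matched 1 row. MACE-Seq counts sequences from the 3′ ends of polyadenylated RNA. It was applied to 3 biological replicates of the empty vector control SEM::mock and 3 of the EGR3 overexpressing line SEM::EGR3. Both lines derive, per the labels, from SEM, an established proB leukemia line that carries KMT2A::AFF1, and both received 1 µg/mL doxycycline, which induces the transgene, for 48 h before RNA extraction. Whether either line is a single clone is not given in the sources used here. Levels are given as CPM, the count scaled to library size with TMM factors. EGR3 itself was at 1.42 ± 0.249 CPM in SEM::mock and rose to 637 ± 27.1 CPM in SEM::EGR3 (SD, n = 3 each). All 10 factors passed the expression filter that left 15465 genes for testing.

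Library totals were 5286115 to 6181388 counts in SEM::mock and 7293092 to 15106018 in SEM::EGR3, so low levels are known less precisely in SEM::mock. The B-lineage and KMT2A fusion target lists did not match the label of the SEM::mock libraries. The erythroid list did not match a proB line in the libraries of either label. Of 11 B-lineage markers, 8 had 3 counts or fewer in each of the SEM::mock libraries, and EBF1 was at 0 in all 3. In SEM::EGR3, 2 of the 11, BLNK and DNTT, also had 3 counts or fewer in each library. The summed level of this list was 2.65 to 5.88 CPM in SEM::mock and 497 to 524 CPM in SEM::EGR3. Much of the SEM::EGR3 sum came from PAX5 at 203 CPM and EBF1 at 128 CPM on average. The 5 targets of KMT2A fusions, among them HOXA9 and MEIS1, summed to 21.9 to 25.1 CPM in SEM::mock and 314 to 339 CPM in SEM::EGR3. Erythroid markers were abundant in both lines, with summed levels of 4818 to 5133 CPM in SEM::mock and 6160 to 6412 CPM in SEM::EGR3, and GATA1 was at 336 ± 9.68 and 286 ± 8.71 CPM (SD, n = 3 each). Myeloid markers (6 genes in the table) summed to 350 to 366 CPM in SEM::mock and 225 to 228 CPM in SEM::EGR3, and of the 5 tested, 3 were lower, 1 was higher and 1 did not pass the threshold. T cell markers summed to 59.6 to 64.9 and 8.26 to 10.5 CPM (3 tested, 2 lower and 1 higher), and the megakaryocyte markers in the table (3 genes) to 11.2 to 12.2 and 12.6 to 14.4 CPM (2 tested, 1 higher and 1 lower). All comparisons here are therefore between libraries labelled SEM::EGR3 and libraries labelled SEM::mock, and the overexpression of EGR3 and the difference in lineage markers cannot be told apart. In these bulk libraries, fewer cells of a type and less RNA per cell cannot be told apart either.

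**Figure D1:**
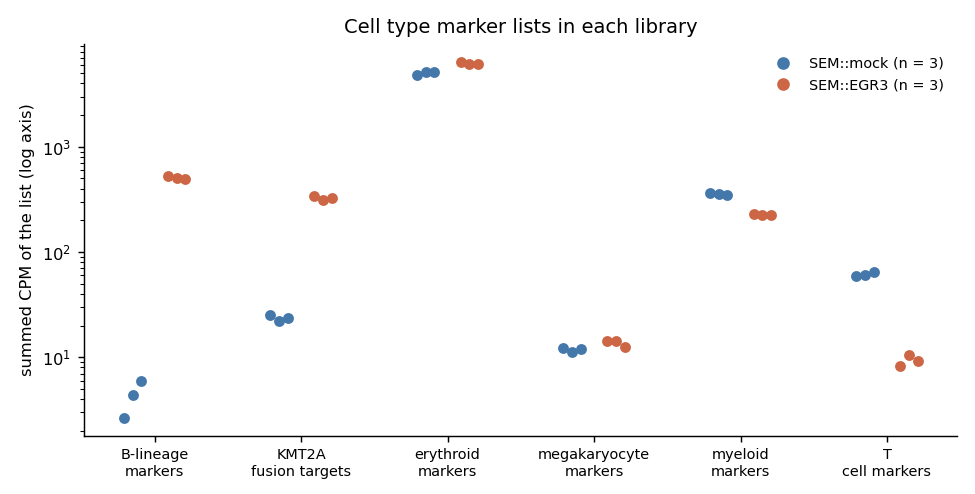
Summed TMM-normalized CPM of 6 marker lists (log axis) in each of the 3 SEM::mock (blue) and 3 SEM::EGR3 (orange) libraries, 1 point per library. B-lineage markers lie at 2.65 to 5.88 CPM in SEM::mock and at 497 to 524 CPM in SEM::EGR3, while erythroid markers lie at 4818 CPM or more in every library.

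KLF and SP proteins share a DNA-binding domain of C2H2 zinc fingers at the C-terminal end and bind GC boxes and CACCC boxes in promoters, and EGR proteins bind a related GC-rich site with zinc fingers of the same type. What lies outside the fingers separates the KLF proteins into groups. KLF2, KLF4 and KLF6 mainly activate transcription through histone acetyltransferases, KLF3 represses through CtBP, and KLF10, KLF11, KLF13 and KLF16 repress through SIN3A. SP1 is a widely expressed activator of genes with GC boxes, and SP3 binds the same sites as an activator or repressor. In blood cells, KLF1 drives erythroid genes, and KLF2 keeps lymphocytes quiescent and directs their trafficking.

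RefSeq promoter entries (GRCh38.p14) were found for 8 of the 10 factors, all but KLF3 and KLF10. The 250 bases before the most upstream listed start were searched on both strands for an EGR motif (GCGNGGGCG), the GC box (GGGCGG) and the CACCC box (CACCC). Matches of the first and second can share bases. The EGR motif was present in 4 of the 8 windows and in 8.41% of 35116 windows of the same length over all listed genes. Those 35116 windows cover every listed start of 27305 genes, whereas each factor gave 1 window. It was also present in 6 of the 13 windows of other KLF and SP genes with an entry. The match in KLF6, at position -65, lies within the 72 bases of its window that GENCODE annotates as exon, and 180 of the 250 bases for KLF11 are exon. The GC box was present in 8 of 8 windows, with 1 to 7 matches each, and in 42.6% of all windows. CACCC was present in 2 of 8 windows, those of KLF13 and SP3, and in 54.7% of all windows. The windows of the factors had a GC content of 58.0% to 86.4%, against a median of 58.0% over all windows. The shares over all windows were not matched for GC content, and its part in the motif shares was not tested. Windows of 4 factors are shown: KLF2 and KLF13 rose most among the factors with an entry, KLF4 fell, and KLF16 holds 2 EGR motifs. Capitals mark EGR motifs and GC boxes, and bases annotated as exon are left out of the printed sequences only. The KLF2 window (chr19:16324576-16324816, plus strand) holds the EGR motif at position -248 from the start, and the KLF13 window (chr15:31326585-31326834, plus strand) holds none. The KLF4 window (chr9:107489770-107490019, minus strand), which lies inside the longer GENCODE gene but in none of its exons, holds it at -189, and the KLF16 window (chr19:1863580-1863829, minus strand) at -114 and -59.
KLF2: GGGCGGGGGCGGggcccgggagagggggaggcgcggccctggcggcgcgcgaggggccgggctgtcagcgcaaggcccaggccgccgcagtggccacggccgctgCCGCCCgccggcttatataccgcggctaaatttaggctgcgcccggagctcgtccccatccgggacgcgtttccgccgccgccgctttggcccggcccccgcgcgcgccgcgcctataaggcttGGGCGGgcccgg
KLF13: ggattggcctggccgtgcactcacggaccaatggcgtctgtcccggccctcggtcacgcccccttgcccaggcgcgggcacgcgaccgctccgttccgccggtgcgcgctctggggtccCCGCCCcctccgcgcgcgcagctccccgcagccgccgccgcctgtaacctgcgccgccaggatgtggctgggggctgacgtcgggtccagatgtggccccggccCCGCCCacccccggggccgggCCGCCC
KLF4: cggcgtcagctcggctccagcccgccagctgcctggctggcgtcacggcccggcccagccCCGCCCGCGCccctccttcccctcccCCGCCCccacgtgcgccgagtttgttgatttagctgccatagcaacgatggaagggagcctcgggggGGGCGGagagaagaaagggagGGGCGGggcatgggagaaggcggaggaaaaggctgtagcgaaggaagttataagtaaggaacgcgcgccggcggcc
KLF16: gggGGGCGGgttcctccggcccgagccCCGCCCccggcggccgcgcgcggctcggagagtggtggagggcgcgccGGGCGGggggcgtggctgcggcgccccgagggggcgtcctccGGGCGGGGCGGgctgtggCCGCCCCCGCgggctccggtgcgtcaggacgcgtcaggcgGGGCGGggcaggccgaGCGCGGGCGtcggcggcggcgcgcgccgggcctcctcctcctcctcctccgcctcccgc
Of the 4 factors with an EGR motif, KLF2 was higher in SEM::EGR3, KLF4 and KLF16 were lower, and KLF6 did not pass the threshold. Of the 4 without it, KLF13, SP1 and SP3 were higher and KLF11 was lower. A match describes letters in these windows only, and binding of EGR3 was not analysed here.

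With edgeR's quasi-likelihood test and a threshold of 0.05 on the Benjamini-Hochberg adjusted p, 5 of the 10 factors were higher in SEM::EGR3 (KLF2, KLF10, KLF13, SP1 and SP3) and 4 were lower (KLF3, KLF4, KLF11 and KLF16). KLF6 did not pass the threshold. Over all tested genes, 68.5% passed, 36.5% higher and 32.0% lower, so that a share of 9 in 10 stands beside a background in which most genes differed. The libraries of the lines did not overlap for 9 of the 10 factors, against 70.1% of all tested genes. KLF2, KLF10 and KLF13, 3 of the 10, also changed by 1 or more on the log2 scale, all upwards. Of all tested genes, 25.2% did so, 16.7% upwards and 8.50% downwards. KLF2 had 2 to 10 counts per SEM::mock library and could pass the expression filter through SEM::EGR3 alone. Where each library had to reach 10 counts, KLF2 was not tested, and of the 9 tested factors 4 were higher and 4 lower. Over all genes, 12801 were tested in that setting, 4251 higher and 4230 lower. Medians of the log2 fold changes were 0.18 over the 10 factors and 0.03 over all tested genes.

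**Figure D2:**
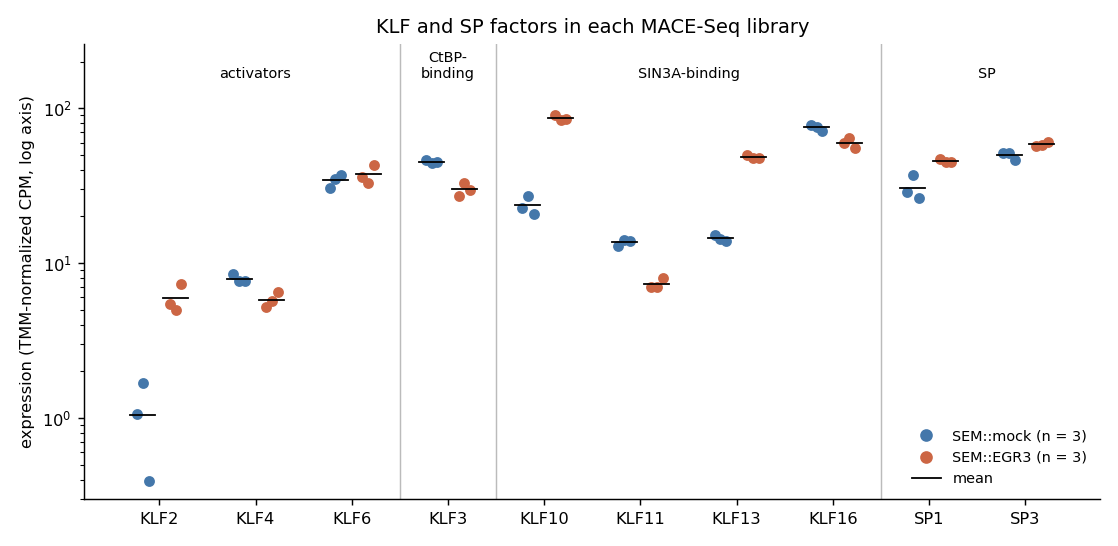
TMM-normalized CPM (log axis) of each factor in the 3 SEM::mock (blue) and 3 SEM::EGR3 (orange) libraries, with the mean as a black line and the factors ordered by cofactor group. KLF2, KLF10 and KLF13 are separated upwards most clearly, KLF11, KLF3 and KLF16 lie lower in SEM::EGR3, and the points of KLF6 overlap.

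Among the activators, KLF2 rose, KLF4 fell slightly and KLF6 gave no call. KLF2 (ENSG00000127528, chromosome 19, 16324817 to 16327874, plus strand, GENCODE release 29) was counted 6, 10 and 2 times in SEM::mock replicates 1 to 3 and 85, 37 and 66 times in the SEM::EGR3 replicates. These corresponded to 1.06, 1.67 and 0.392 CPM in SEM::mock and 5.48, 4.98 and 7.29 CPM in SEM::EGR3. Every SEM::EGR3 library was higher than every SEM::mock library, and SEM::mock replicate 3 was lowest. With so few SEM::mock counts, KLF2 could enter the test through SEM::EGR3 alone. The log2 fold change was 2.44 (SE, 0.32, derived from the test statistic; adjusted p = 3.04e-07, edgeR) and ranged from 2.07 to 2.95 on leaving out single libraries, so the size is less certain than the direction.

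KLF4 (ENSG00000136826, chromosome 9, 107484852 to 107490482, minus strand), which promotes growth arrest and monocyte differentiation and is one of the reprogramming factors, was at 8.48, 7.70 and 7.65 CPM in SEM::mock and at 5.22, 5.66 and 6.52 CPM in SEM::EGR3. All SEM::EGR3 libraries lay below all SEM::mock libraries, with a narrow gap. The log2 fold change was -0.47 (SE 0.17, adjusted p = 0.0182, edgeR). This call was lost with DESeq2 (adjusted p = 0.0808), without SEM::EGR3 replicate 1 (adjusted p = 0.100, edgeR) and without SEM::mock replicate 1 (adjusted p = 0.0584, edgeR), whereas the direction stayed the same. KLF6 (ENSG00000067082, chromosome 10, 3775996 to 3785281, minus strand), an early response gene and growth suppressor, was at 30.7, 34.7 and 37.1 CPM in SEM::mock and at 36.0, 33.1 and 43.0 CPM in SEM::EGR3. The libraries of the lines overlapped, and the log2 fold change of 0.13 had a 95% interval from -0.07 to 0.33 (adjusted p = 0.232, edgeR). A change of more than 0.33 in either direction on the log2 scale lies outside this interval.

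The SIN3A-binding repressors held both directions. KLF10 (ENSG00000155090, chromosome 8, 102648779 to 102655902, minus strand), an early gene of the TGF-β response, was at 22.8, 27.1 and 20.8 CPM in SEM::mock and at 90.2, 83.4 and 85.2 CPM in SEM::EGR3. The lowest SEM::EGR3 library was thus far above the highest SEM::mock library. KLF10 rose 3.66-fold, with a log2 fold change of 1.87 (SE 0.08, adjusted p = 7.40e-16, edgeR). Its close paralog KLF11 (ENSG00000172059, chromosome 2, 10042849 to 10054836, plus strand), also induced by TGF-β, moved the other way. KLF11 was at 12.9, 14.1 and 13.9 CPM in SEM::mock and at 7.03, 7.00 and 7.96 CPM in SEM::EGR3, without overlap. It was 1.86-fold lower (log2 fold change -0.90, SE 0.14, adjusted p = 4.25e-06, edgeR). The ratio of KLF10 to KLF11 was 1.49 to 1.93 in the SEM::mock libraries and 10.7 to 12.8 in the SEM::EGR3 libraries.

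KLF13 (ENSG00000169926, chromosome 15, 31326855 to 31435665, plus strand), known as an activator of CCL5 in T cells, was at 15.2, 14.2 and 13.9 CPM in SEM::mock and at 50.1, 47.8 and 47.5 CPM in SEM::EGR3. The replicates of each line lay close together and the lines far apart. KLF13 rose 3.35-fold (log2 fold change 1.75, SE 0.09, adjusted p = 1.78e-14, edgeR). KLF16 (ENSG00000129911, chromosome 19, 1852399 to 1863568, minus strand), which competes with SP1 for GC boxes, had the highest level of the 10 factors in SEM::mock. It was at 78.3, 76.2 and 71.6 CPM there and at 60.0, 64.7 and 55.5 CPM in SEM::EGR3, lower in every library. The decrease was small (1.26-fold, log2 fold change -0.33, SE 0.07, adjusted p = 0.000180, edgeR). KLF9, the family member of this group that responds to glucocorticoid and thyroid hormones, also rose, by 1.88 on the log2 scale (SE 0.10), between 12.9 ± 0.732 and 47.5 ± 3.46 CPM (SD, n = 3 each). KLF14 had too few counts to be tested, at 1 to 4 in SEM::mock and 7 to 18 in SEM::EGR3.

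KLF3 (ENSG00000109787, chromosome 4, 38664196 to 38701042, plus strand), a CtBP-binding repressor that KLF1 activates in erythroid cells, was at 46.5, 44.2 and 44.7 CPM in SEM::mock. In SEM::EGR3 it was at 27.2, 32.9 and 29.6 CPM, and no SEM::EGR3 library reached a SEM::mock library. KLF3 was 1.51-fold lower (log2 fold change -0.61, SE 0.09, adjusted p = 6.77e-07, edgeR). The antisense gene KLF3-AS1 overlaps KLF3 without covering its 3′ end and had 4 to 8 counts in SEM::mock and 31 to 51 in SEM::EGR3, few against the 228 to 421 counts of KLF3. KLF12, another CtBP-binding repressor, was counted 4, 3 and 3 times in SEM::mock against 161, 67 and 78 times in SEM::EGR3, a ratio of summed counts of 16.0 after scaling (95% exact counting interval 8.59 to 33.7). KLF8, the third gene of this group, had 1, 3 and 2 counts against 22, 11 and 16 and was not tested. Its ratio was 4.27 (95% exact counting interval 1.83 to 12.2).

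SP1 and SP3 rose less than KLF2, KLF10 and KLF13 did. SP1 (ENSG00000185591, chromosome 12, 53380176 to 53416446, plus strand) was at 28.6, 37.0 and 26.5 CPM in SEM::mock and at 47.0, 44.9 and 44.9 CPM in SEM::EGR3. SEM::mock replicate 2 was highest of its line and still below every SEM::EGR3 library. The log2 fold change of SP1 was 0.57 (SE 0.09, adjusted p = 1.05e-05, edgeR). SP3 (ENSG00000172845, chromosome 2, 173906459 to 173965702, minus strand) was at 51.8, 51.6 and 46.3 CPM in SEM::mock and at 56.8, 58.2 and 60.9 CPM in SEM::EGR3. All SEM::EGR3 libraries were higher, by a small margin, with a log2 fold change of 0.23 (SE 0.07, adjusted p = 0.00726, edgeR). Without SEM::mock replicate 3, the call of SP3 was lost (log2 fold change 0.16, adjusted p = 0.0784, edgeR). SP3 RNA exceeded SP1 RNA in each library, and the ratio of SP3 to SP1 was 1.39 to 1.81 in SEM::mock and 1.21 to 1.36 in SEM::EGR3.

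The rest of the family comprises 16 genes, of which 10 passed the expression filter, and all 10 passed the adjusted threshold, 8 higher and 2 lower in SEM::EGR3 (edgeR), against 68.5% of all tested genes called, 36.5% higher and 32.0% lower. Genes with few counts in SEM::mock could pass this filter through SEM::EGR3 alone. KLF7, KLF12 and SP7, 3 of the 8, had 0 to 11 counts per SEM::mock library, and where each library had to reach 10 counts, 6 genes were tested, 5 higher and 1 lower. In that setting, 8481 of 12801 genes were called over all genes. The log2 fold changes of the 10 genes that passed the expression filter, KLF7, KLF12 and SP7 included, had a median of 1.01. The median over all tested genes was 0.03. KLF1 had the highest level of the whole family in SEM::mock, at 161 ± 5.52 CPM (SD, n = 3), and was 4.50-fold lower in SEM::EGR3 at 35.8 ± 1.52 CPM (SD, n = 3). Its log2 fold change was -2.18 (SE 0.06, adjusted p = 1.45e-19, edgeR). Of the 12 erythroid markers, 11 were tested, 8 fell and 3 rose. GYPB, a surface glycoprotein whose reads may be shared with its paralogs, fell by 1.75 on the log2 scale, whereas HBZ, an embryonic globin, rose by 1.29. The part of these differences in erythroid genes in the result for KLF1 was not tested.

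KLF7, an activator known from neurons, was counted 9, 11 and 3 times in SEM::mock against 144, 70 and 70 times in SEM::EGR3 (log2 fold change 2.67, SE 0.27, adjusted p = 2.40e-09, edgeR). KLF15, a regulator of muscle and liver metabolism, fell by 1.07 on the log2 scale (SE 0.36, adjusted p = 0.00984, edgeR) at 6 to 17 counts per library, and this call was lost in 2 of 12 alternatives. KLF5, with 2 to 4 counts in SEM::mock and 6 to 24 in SEM::EGR3, was not tested. Among the SP genes, SP4 rose most clearly, from 12.2 ± 1.14 to 27.5 ± 1.42 CPM (SD, n = 3 each, log2 fold change 1.19, SE 0.11). SP9, SP6 and SP2 had log2 fold changes of 0.84, 0.48 and 0.43, with adjusted p-values of 0.00162, 0.00102 and 0.000795 (edgeR). The antisense gene SP2-AS1 covers the 3′ end of SP2 and had 2 to 7 counts in SEM::mock and 28 to 43 in SEM::EGR3. SP2 itself had 85 to 105 counts in SEM::mock and 161 to 356 in SEM::EGR3. The part of antisense reads in the fold change of SP2 was not tested. SP7, the osteoblast factor, was at 0 counts in SEM::mock and at 28, 16 and 21 counts in SEM::EGR3, at least 3.88-fold above a level of 3 counts per library. SP8 had at most 3 counts in any library, SP5 had 1 count in all and KLF17 none.

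**Figure D3:**
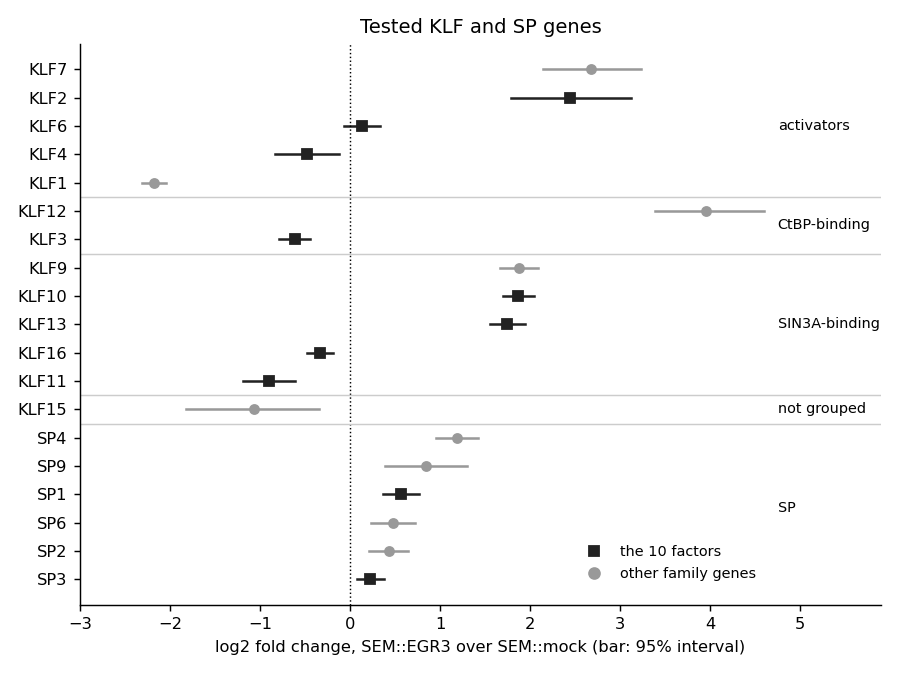
Log2 fold changes of the tested KLF and SP genes, SEM::EGR3 over SEM::mock, with 95% intervals from edgeR, grouped by cofactor. Black squares are the 10 factors and grey circles the other family genes, and SP7, at 0 counts in SEM::mock, is left out. Each group of KLF repressors and activators holds genes on both sides of 0, whereas all SP genes shown lie above 0.

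As MACE-Seq counts 1 end per transcript, levels of different genes were compared as CPM without a length correction. In SEM::mock, the order from high to low was KLF16, SP3, KLF3, KLF6, SP1, KLF10, KLF13, KLF11, KLF4 and KLF2, from 75.4 to 1.04 CPM on average. The replicate ranges of SP3 and KLF3, of KLF6 and SP1, of SP1 and KLF10, and of KLF13 and KLF11 overlapped, and the other neighbours were separated. In SEM::EGR3, KLF10 stood first at 86.3 CPM on average, followed by KLF16, SP3, KLF13, SP1, KLF6, KLF3, KLF11, KLF2 and KLF4. There, KLF16 and SP3, KLF11 and KLF2, and KLF2 and KLF4 overlapped. KLF10 thus moved from the sixth to the first place and KLF3 from the third to the seventh.

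The 10 factors together made up 283 to 309 CPM in SEM::mock and 383 to 388 CPM in SEM::EGR3. With the other family genes added (26 genes in all), the sums were 507 to 537 and 573 to 584 CPM, so the total differed by a factor of 1.10 while its make-up differed more. KLF1 took 30.6% ± 0.730 of this total in SEM::mock and 6.20% ± 0.248 in SEM::EGR3 (SD, n = 3 each). KLF10 took 4.47% ± 0.510 and 14.9% ± 0.657, KLF13 2.75% ± 0.0944 and 8.40% ± 0.302, and KLF9 2.46% ± 0.0755 and 8.22% ± 0.526, in the same order. The share of SP3 was 9.47% ± 0.298 and 10.2% ± 0.262, and that of KLF6, at 6.50% ± 0.783 and 6.47% ± 0.806, overlapped between the lines. By cofactor group, the activators summed to 203 to 209 CPM in SEM::mock and 90.8 to 102 CPM in SEM::EGR3. Without KLF1, the activator sum was instead higher in SEM::EGR3, at 54.0 to 65.5 CPM against 42.2 to 46.5 CPM in SEM::mock. The SIN3A-binding repressors summed to 133 to 145 CPM in SEM::mock and 248 to 257 CPM in SEM::EGR3, the CtBP-binding repressors to 45.2 to 47.4 and 39.0 to 43.4 CPM, and the SP genes to 124 to 139 and 186 to 194 CPM.

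**Figure D4:**
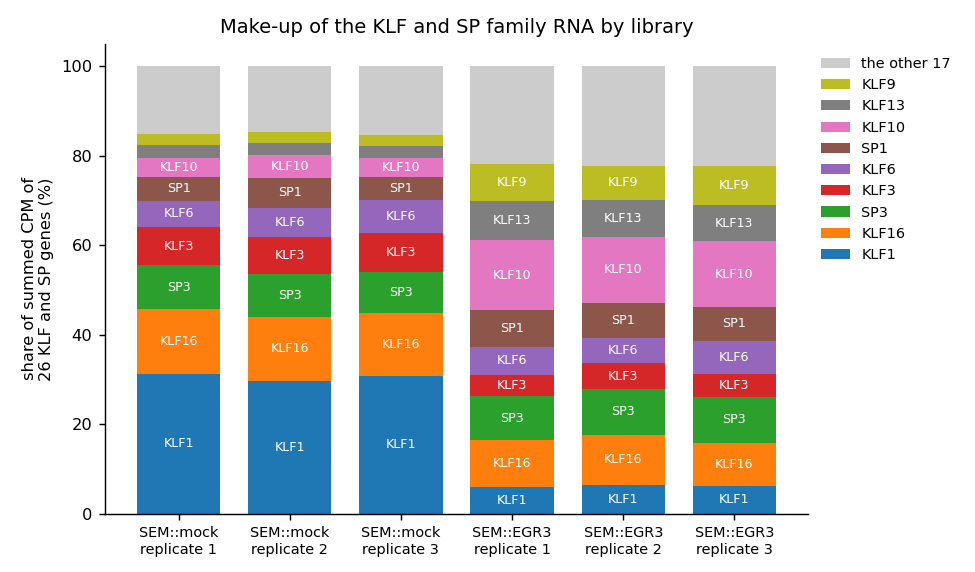
Share of each KLF or SP gene in the summed CPM of the 26 family genes, in percent, for each library. KLF1 takes 30.6% on average in SEM::mock and 6.20% in SEM::EGR3, while KLF10, KLF13 and KLF9 widen.

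Proteins that KLF and SP factors recruit were measured as a list of 11 cofactor genes, of which 5 were higher, 3 lower and 3 did not pass the threshold (edgeR, median log2 fold change 0.17, against 0.03 over all tested genes). A share of 8 in 11 called is close to the 68.5% called over all tested genes, which is the background for the lists that follow as well. The CtBP genes, corepressors of KLF3, KLF8 and KLF12, both rose. CTBP2 went from 8.41 ± 0.842 to 37.7 ± 3.98 CPM (SD, n = 3 each, log2 fold change 2.18, SE 0.12), and CTBP1 from 184 ± 7.04 to 236 ± 5.07 CPM (SD, n = 3 each, 0.36, SE 0.05). FHL3, a LIM protein that binds KLF3, fell by 1.63 on the log2 scale. SIN3A, the corepressor of the KLF10 group, was at 38.5 ± 2.64 and 40.5 ± 4.39 CPM (SD, n = 3 each), with a 95% interval of its log2 fold change from -0.10 to 0.27. SIN3B, of the same list, was lower, with a log2 fold change of -0.32 (adjusted p = 0.00668, edgeR). HDAC1, a deacetylase of the SIN3A complex, fell by 0.61 on the log2 scale. Its paralog HDAC2 rose by 0.32 (adjusted p = 1.27e-05, edgeR), and TAF4, a coactivator of SP1, rose by 0.94. The adjusted p-values of CTBP1, CTBP2, FHL3, HDAC1 and TAF4 ranged from 2.06e-17 (FHL3) to 2.01e-06 (CTBP1) (edgeR).

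Genes that act upstream of these factors or on their turnover (11 genes) were higher in 7 cases and lower in none, and 4 did not pass the threshold (edgeR, median log2 fold change 0.35). A share of 7 in 11 called is close to the 68.5% called over all tested genes, and 1 of the 7, the ubiquitin ligase subunit FBXW7 (log2 fold change 0.22, adjusted p = 0.0436, edgeR), kept its call in 5 of 13 alternatives. Of the 7, 4 belong to the MAPK7 and MEF2 pathway, which activates KLF2 and KLF4. This pathway also makes up much of the list (MAP3K3, MAP2K5, MAPK7, MEF2A, MEF2C and MEF2D), so this count reflects how the list was made. MEF2C rose from 25.7 ± 3.12 to 274 ± 11.7 CPM (SD, n = 3 each, log2 fold change 3.41, SE 0.08), MEF2D by 1.68, MAPK7 by 0.96 and MEF2A by 0.81 on the log2 scale. MAP2K5 and MAP3K3, kinases above MAPK7, did not pass the threshold (log2 fold changes 0.12 and 0.01). Of 9 TGF-β pathway genes, 3 were higher and 4 lower (median log2 fold change 0.03). SMAD3, TGFBR1 and TGFB1 fell by 1.50, 1.07 and 0.98 on the log2 scale, and SMAD2, TGFBR2 and SMAD4 rose by 0.50, 0.45 and 0.28, beside the opposite changes of KLF10 and KLF11.

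Reported target genes also moved in both directions. The lists do not separate activated from repressed targets, and 1 list pools targets of KLF2, which rose, with those of KLF4, which fell. The directions were therefore not read as a response to a factor. Of 6 targets of KLF2 and KLF4, 3 were higher, 2 lower and 1 did not pass the threshold (edgeR, median log2 fold change 0.068). S1PR1, the receptor for lymphocyte egress, had 3 counts per SEM::mock library and 43, 18 and 22 in SEM::EGR3, a ratio of summed counts of 4.82 (95% exact counting interval 2.42 to 10.9). NOS3 and CCND1 fell by 2.17 and 2.03 on the log2 scale, and CDKN1A rose by 0.56. Of 4 SP1 targets, VEGFA and TYMS were higher (log2 fold changes 0.64 and 0.35), TERT was lower (-1.08), and TK1 did not pass the threshold (0.01). SMAD7, which KLF10 represses, was at 27.0 ± 0.639 and 27.4 ± 0.937 CPM (SD, n = 3 each), with a 95% interval of its log2 fold change from -0.16 to 0.21. MAOA, another target of KLF11, had 1 count per SEM::mock library and was not tested. LGALS3, a target of KLF3, had a log2 fold change of 0.46 (adjusted p = 0.0973, edgeR). KLF8, the other listed target of KLF3, was not tested. Its ratio of summed counts was 4.27 (95% exact counting interval 1.83 to 12.2). MEF2C and S1PR1 are also expressed in B-lineage cells, and the part of the B-lineage difference in these values was not tested.

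**Figure D5:**
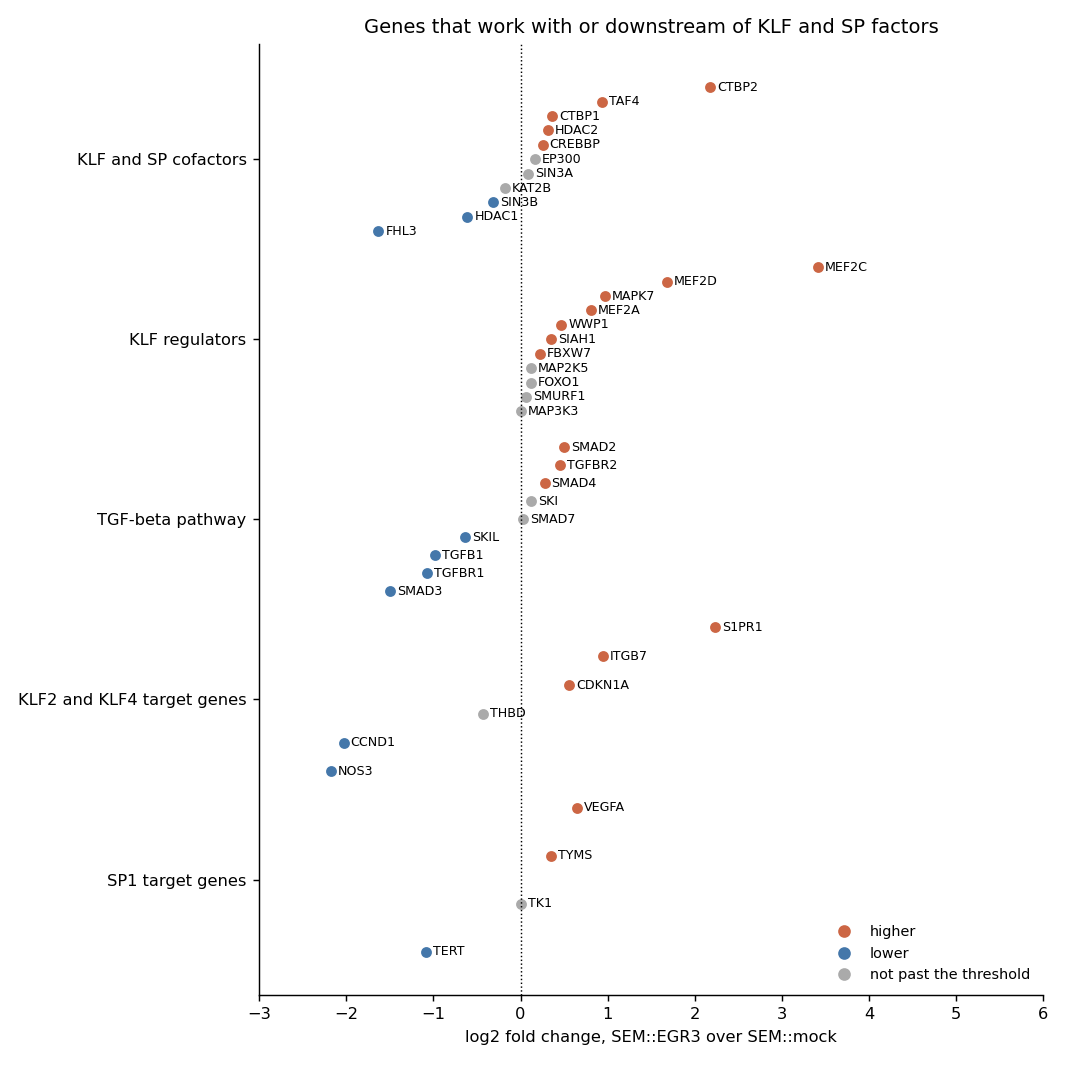
Log2 fold changes (SEM::EGR3 over SEM::mock) of cofactors, regulators, TGF-β pathway genes and reported targets, 1 point per tested gene, orange where higher, blue where lower and grey where the adjusted p-value was not under 0.05. No regulator is blue, whereas the other lists hold genes in both directions.

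Other factors that bind the EGR site or regulate EGR proteins changed as well. EGR1 fell from 307 ± 23.7 to 51.5 ± 7.83 CPM (SD, n = 3 each, log2 fold change -2.56, SE 0.08). WT1, a zinc finger factor with a related motif, fell by 0.59 on the log2 scale, and EGR2 rose by 1.80 at 1 to 6 counts per SEM::mock library. With so few SEM::mock counts, EGR2 could also enter the test through SEM::EGR3 alone. The corepressor gene NAB2 rose from 43.7 ± 1.14 to 139 ± 2.84 CPM (SD, n = 3 each, log2 fold change 1.67, SE 0.06). NAB1 was at 61.2 ± 0.546 and 60.7 ± 3.30 CPM (SD, n = 3 each) and did not pass the threshold. In SEM::EGR3, EGR3 RNA at 637 CPM exceeded the summed RNA of the 26 KLF and SP genes, which was 577 CPM on average.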

How the data were processed

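RNA of 6 libraries, 3 of SEM::mock and 3 of SEM::EGR3, was sequenced by the authors by MACE-Seq. The submitters' processing notes name bcl2fastq, Bowtie2, HTSeq and the build GRCh38. Annotation, strand setting and use of molecular identifiers in counting are not given in the sources used here, so reads of overlapping genes cannot be assigned with certainty, and exact counting intervals cover counting error only, whereas the intervals of edgeR fold changes include the spread between replicates. Used here were the raw counts that the authors deposited. They also deposited CPM values headed tpm, size-factor normalized values (signal), means, and their own DESeq2 log2 fold changes and p-values, which were not used. The headings spell EGR3 as ERG3.

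The test was that of edgeR 4.0.16 in R 4.3.3 (filterByExpr, TMM, glmQLFit, glmQLFTest, SEM::EGR3 against SEM::mock, Benjamini-Hochberg adjustment over 15465 genes). Standard errors were derived from the F statistic. Levels are CPM after TMM scaling. Scripts were first tested on simulated counts. Replicates of a line differed by more than counting noise (chi-square per degree of freedom 1.71 to 3.32). P-values set the difference between the lines against the spread between the replicates given. Gene positions are those of GENCODE release 29, and promoters those of RefSeq. Sets of genes are described by counts and medians. Named were all 10 factors, other family genes past the threshold or with 10 counts in some library, and, of each other list, up to 3 calls with the largest changes in each direction, or any gene of lists of up to 7 genes. SP5, SP8, KLF17, SP2-AS1, MEF2A, FBXW7, SIN3A, HDAC2, MAP2K5, MAP3K3 and the marker genes fall outside this rule and were chosen after their values were seen. The members and lists were chosen with earlier results of these data known. Alternatives were DESeq2 1.42.0, other normalizations and filters, the replicate number as a term, each library left out, and a minimum fold. Some genes of these lists are not reported here.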

Additional observations from a re-analysis of the deposited data

How the results depend on the processing

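Under all 13 alternatives that gave a value (12 for KLF2), each of the 10 factors kept the sign of its fold change. Of 129 values, 125 stayed on the same side of the threshold and 4 lost the call, 3 for KLF4 and 1 for SP3. A minimum absolute log2 fold change of 1 left 3 of the factors and 3896 of all genes. Where each library had to reach 10 counts, 6 other KLF and SP genes were tested and 6 called, as fewer genes enter that test, and KLF2 was not tested. Over all genes, 12801 were tested in that setting and 8481 called. With each library left out in turn, 8 to 9 of the 10 factors were called. Of 10 to 11 other family genes tested, 10 to 11 were called. Of 15546 to 16110 genes tested in all, 9938 to 10499 were called. The replicate numbers did not pair the libraries (correlations of deviations -0.138 to -0.0431). With the replicate block, 9 factors, 10 other family genes and 10081 of 15465 tested genes were called. Depth limits KLF2, KLF7, KLF12, SP7, S1PR1 and EGR2, with 0 to 11 counts per SEM::mock library, and left KLF5, KLF8 and KLF14 untested.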
